A study of Mus musculus with 24 samples.

Results

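MiR-140 and miR-140* are the mature strands cut from the same hairpin, and each was measured by a probe of its own on arrays of mouse mammary carcinoma cells. The probes were found by their exact mature names, mmu-miR-140 and mmu-miR-140*, which gave 2 of the 558 mouse miRNA probes. They were singled out because an earlier look at these data placed both among the largest differences of 4TO7 cells between TGF-beta and inhibitor, so that comparison is given below as a description, with no test. The study held 24 arrays of 3 sister lines, 4T1 (labelled metastatic), 4TO7 (labelled invasive) and 67NR (labelled nonmetastatic). Cells of each line had been cultured for 6 days as 3D organotypic cultures in a rigid or a compliant microenvironment. Every culture received TGF-beta, a growth factor whose receptors signal through Smads, or a type I receptor inhibitor, which the labels call basal. Each culture had 1 of these agents, so what TGF-beta added cannot be told apart from what the inhibitor removed. Each of the 12 groups had 2 arrays, named set 1 and set 2. Nothing in the labels ties the sets to separate cultures, and the p-values therefore measure only the spread between these arrays.

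MicroRNAs are short RNAs that guide Argonaute proteins to messenger RNAs and lower their output. A hairpin precursor is cut into a duplex, and the strand once thought to be discarded was given a star, although either strand can be loaded and act. The miR-140 hairpin lies inside Wwp2, a gene for an E3 ubiquitin ligase, and is best known from cartilage, where Sox9 drives its transcription and where mice lacking it have short, craniofacially altered skeletons. In other studies miR-140 has been linked to the TGF-beta pathway through Smad3, a transducer of the receptor signal, and to stem-like cells of breast tumours.

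The sequences below show the hairpin, the miR-140* strand and its seed. The seed, bases 2 to 8 of a mature strand, sets most of its targeting. They were read from RefSeq annotation of the GRCm38.p6 mouse assembly, in which the 70-base hairpin Mir140 lies at chr8:107551244-107551313 on the plus strand, within Wwp2 at chr8:107436334-107559290. In the hairpin, capitals mark bases 45 to 65, the miR-140-3p strand, which is the current name of miR-140*. In the mature strands, capitals mark the seed.
Mir140 hairpin: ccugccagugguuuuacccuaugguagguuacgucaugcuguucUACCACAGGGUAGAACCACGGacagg
mmu-miR-140-3p: uACCACAGgguagaaccacgg
mmu-miR-497b: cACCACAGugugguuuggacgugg
The 21-base miR-140-3p lies at chr8:107551288-107551308. Of 1738 mature mouse strands in that annotation, 2 carried this seed, the other being miR-497b at chr11:70234763-70234786 on the minus strand, which is not among the array's names. The strand called miR-140 on the array is miR-140-5p, from the other arm of the hairpin. It has no mature entry in that annotation, so its sequence and seed are not shown and not counted. The arms of a hairpin carry different seeds, so miR-140 and miR-140* come from 1 transcript but pair with different targets.

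Both strands passed detection on every array. Each had a detection p under 0.05 on 24 of 24 arrays. The highest values were 9.35e-05 for miR-140 and 1.11e-16 for miR-140*, and no spot of either carried a fail code. Counted down from the highest intensity, miR-140 stood at places 180 to 284 of the miRNA probes on an array. MiR-140* stood at places 86 to 145. Between 313 and 357 probes were detected per array, so miR-140 lay in the lower part of the detected probes on some arrays. The deposited error, taken as a percent of the intensity, had a median of 6.12% for miR-140 (3.72% to 16.0%) and of 5.72% for miR-140* (3.00% to 10.8%). Values below are log2 intensities after quantile normalization, and fitted differences come from a linear model of 12 group means with limma over 365 tested probes. The residual SD between arrays of a group was 0.07 for miR-140 and 0.06 for miR-140*, against a median of 0.08 over all tested probes, and the 12 group means spanned 0.85 and 0.94. Different probes differ in response, so the level of one strand is not set against the level of the other.

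In 4TO7 cells both strands had higher values on every TGF-beta array than on any inhibitor array. MiR-140 read 8.32 and 8.45 on the rigid TGF-beta arrays and 8.13 and 8.22 on the compliant TGF-beta arrays, against 7.82 and 7.85 on the rigid inhibitor arrays and 7.96 and 7.90 on the compliant inhibitor arrays. MiR-140* read 9.93 and 9.87 on the rigid TGF-beta arrays and 9.65 and 9.63 on the compliant TGF-beta arrays, against 9.24 and 9.17 on the rigid inhibitor arrays and 9.30 and 9.28 on the compliant inhibitor arrays. For each strand the lowest of the 4 TGF-beta arrays lay above the highest of the 4 inhibitor arrays. The difference was 0.40 ± 0.05 (SE), or 1.32-fold, for miR-140 (8.28 ± 0.13 with TGF-beta and 7.88 ± 0.06 with the inhibitor, SD, n = 4 each). It was 0.52 ± 0.05, or 1.44-fold, for miR-140* (9.77 ± 0.15 with TGF-beta and 9.25 ± 0.06 with the inhibitor, SD, n = 4 each). Ordered by their fitted difference, miR-140* stood at place 6 and miR-140 at place 10 of 365. In this comparison 9.59% of tested probes were called higher, and 8.49% had 4 TGF-beta arrays all above the 4 inhibitor arrays. Both strands were chosen on this comparison, so nothing is read from those shares.

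**Figure D1:**
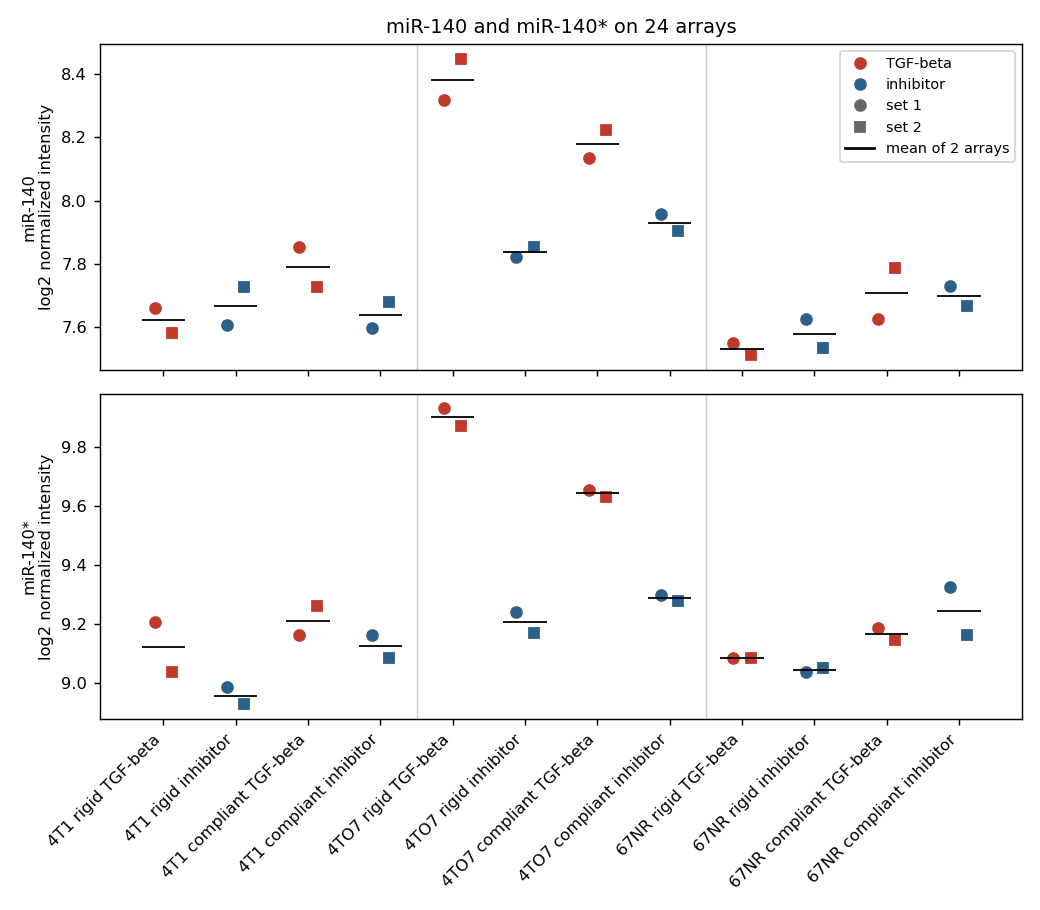
Log2 normalized intensity of miR-140 (upper plot) and miR-140* (lower plot) on each of the 24 arrays, by line, microenvironment and treatment, with red points for TGF-beta, blue points for the inhibitor, circles for set 1, squares for set 2 and bars for the mean of 2 arrays. The 4TO7 TGF-beta arrays, at 8.13 to 8.45 for miR-140 and 9.63 to 9.93 for miR-140*, lie above the other 20 arrays.

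The same separation within 4TO7 was present in the deposited relative intensities, before normalization between arrays. MiR-140 had intensities of 282 and 356 in the rigid and 254 and 347 in the compliant TGF-beta cultures, against 192 and 205 in the rigid and 208 and 212 in the compliant inhibitor cultures. MiR-140* had 871 and 911 in the rigid and 760 and 904 in the compliant TGF-beta cultures, against 510 and 528 in the rigid and 552 and 541 in the compliant inhibitor cultures. Without normalization the log2 differences were larger, at 0.59 for miR-140 and 0.69 for miR-140*, and the median over all tested probes then lay at 0.18. The arrays lay on 5 slides, and slides that held a TGF-beta and an inhibitor array of 4TO7 from the same microenvironment gave differences of the same direction. On slide 2 the compliant pair differed by 0.32 for miR-140 and 0.35 for miR-140*. On slide 4 the rigid TGF-beta array exceeded both rigid inhibitor arrays, by 0.59 and 0.62 for miR-140 and by 0.63 and 0.70 for miR-140*.

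The 4 TGF-beta arrays of 4TO7 also stood above the 20 arrays of all other groups. MiR-140 spanned 8.13 to 8.45 on these 4 arrays and 7.51 to 7.96 on the other 20. MiR-140* spanned 9.63 to 9.93 on these 4 arrays and 8.93 to 9.32 on the other 20. Of all 365 tested probes, 4 (1.1%) showed this separation, and the other two were miR-99b and miR-148a, named after their values were seen. MiR-99b spanned 11.11 to 11.27 on the 4 arrays and 10.15 to 11.06 on the other 20. MiR-148a spanned 7.43 to 7.82 against 6.12 to 7.36, and it was detected on all 8 arrays of 4TO7 and on none of the other lines. As the strands were chosen for their response in 4TO7, this is a description of where they stand.

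In 67NR and 4T1 cells neither strand passed the test for TGF-beta against inhibitor. In 67NR the arrays interleaved, with miR-140 at 7.55, 7.51, 7.63 and 7.79 with TGF-beta and at 7.63, 7.53, 7.73 and 7.67 with the inhibitor (rigid sets 1 and 2, then compliant sets 1 and 2). The fitted difference in 67NR was -0.02 for miR-140 (95% interval -0.12 to 0.08, limma adjusted p = 0.865) and -0.02 for miR-140* (-0.12 to 0.08, limma adjusted p = 0.891). In this comparison 11% of tested probes were called, 3.29% of all tested as higher and 7.67% as lower (12 and 28 probes, against 35 and 26 with the authors' values and, with median scaling, 5 and 41). Within slides of 67NR, miR-140 differed by -0.10 on slide 1 and -0.11 on slide 4, and miR-140* by -0.14 and 0.05.

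In 4T1 the star strand came nearest to a call. MiR-140* read 9.21, 9.04, 9.16 and 9.26 with TGF-beta and 8.99, 8.93, 9.16 and 9.09 with the inhibitor, in the order rigid sets 1 and 2, then compliant sets 1 and 2. The groups overlapped, and the difference was 0.13 ± 0.05 (SE; 95% interval 0.03 to 0.23) with a limma adjusted p of 0.0533. This p was under the threshold in 6 of 11 alternative settings, where it was as low as 0.00667, and in 5 of 24 fits that left out 1 array. MiR-140 differed by 0.05 (95% interval -0.05 to 0.15, limma adjusted p = 0.388). In 4T1, 31.8% of tested probes were called for TGF-beta, 12.6% of all tested as higher and 19.2% as lower (46 and 70 probes, against 77 and 55 with the authors' values). No slide held a matching pair of 4T1 arrays.

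Set beside each other, the TGF-beta differences were 0.05 in 4T1, 0.40 in 4TO7 and -0.02 in 67NR for miR-140, and 0.13 in 4T1, 0.52 in 4TO7 and -0.02 in 67NR for miR-140*. The excess of 4TO7 over 67NR was 0.42 ± 0.07 (SE) for miR-140 and 0.54 ± 0.07 for miR-140*, and its excess over 4T1 was 0.34 ± 0.07 and 0.40 ± 0.07. These values contain the 4TO7 comparison and are given with no test. The difference of the TGF-beta effect between 4T1 and 67NR was tested, and it did not pass for miR-140 (0.07, limma adjusted p = 0.537) or for miR-140* (0.14, limma adjusted p = 0.219), while 6.85% of tested probes did.

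**Figure D2:**
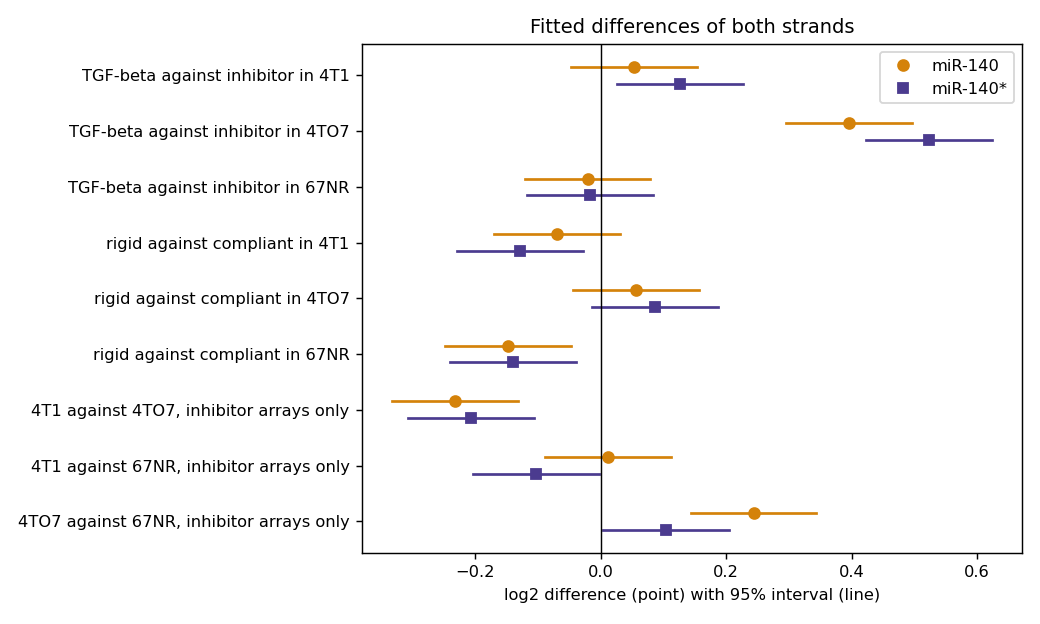
Fitted log2 differences (points) with 95% intervals (lines) of miR-140 (orange circles) and miR-140* (violet squares) for treatment (TGF-beta against inhibitor) and microenvironment (rigid against compliant) in each line, and for pairs of lines on inhibitor arrays only. The widest departures from 0 are the TGF-beta differences in 4TO7, at 0.40 and 0.52, while both strands sit at -0.02 in 67NR.

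Within 4TO7, the TGF-beta difference had a larger value in the rigid than in the compliant cultures for both strands. MiR-140 differed by 0.54 ± 0.07 (SE) in rigid and by 0.25 ± 0.07 in compliant cultures, and miR-140* by 0.69 ± 0.07 in rigid and by 0.35 ± 0.07 in compliant cultures. The excess in rigid cultures was 0.30 ± 0.09 for miR-140 (95% interval 0.10 to 0.50, limma adjusted p = 0.783) and 0.34 ± 0.09 for miR-140* (0.14 to 0.54, limma adjusted p = 0.469). Neither passed the adjustment. No probe passed in this comparison, in which limma called 0 of 365 (0%) and 8 had an unadjusted p under 0.05. It was added after the values were seen and uses the 4TO7 arrays on which the strands were chosen. Nothing is therefore read from its p-values. The average over the lines, given below, includes the same arrays.

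In the other lines the strands had values of unlike sign. In 4T1 the rigid excess of the TGF-beta difference was -0.20 ± 0.09 for miR-140 (limma adjusted p = 0.598) and 0.08 ± 0.09 for miR-140* (limma adjusted p = 0.973). In 67NR it was -0.06 ± 0.09 for miR-140 (limma adjusted p = 0.966) and 0.12 ± 0.09 for miR-140* (limma adjusted p = 0.828). Averaged over the lines it was 0.02 ± 0.05 for miR-140 (limma adjusted p = 0.952) and 0.18 ± 0.05 for miR-140* (limma adjusted p = 0.591), and limma called 0 of 365 probes (0%), with 22 at an unadjusted p under 0.05.

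Rigidity itself moved neither strand past the threshold in any line. In 67NR miR-140 read 7.55, 7.51, 7.63 and 7.53 in rigid and 7.63, 7.79, 7.73 and 7.67 in compliant cultures, in the order TGF-beta sets 1 and 2, then inhibitor sets 1 and 2. Rigid arrays thus reached, at most, the level of the lowest compliant array. The difference in 67NR was -0.15 ± 0.05 (SE) for miR-140 (limma adjusted p = 0.0593) and -0.14 ± 0.05 for miR-140* (limma adjusted p = 0.0752), with 11% of tested probes called. In 3 of 11 alternative settings the p of miR-140 was under the threshold, and in 2 of 11 that of miR-140*. No slide held matching rigid and compliant arrays of 67NR.

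In 4TO7 the strands differed between rigid and compliant cultures by 0.06 (95% interval -0.04 to 0.16, limma adjusted p = 0.64) and 0.09 (-0.01 to 0.19, limma adjusted p = 0.396), and 2.74% of tested probes were called. The 1 matching pair of 4TO7 arrays within a slide, both with TGF-beta on slide 4, differed by 0.31 for miR-140 and 0.22 for miR-140*. In 4T1 they differed by -0.07 (-0.17 to 0.03, limma adjusted p = 0.429) and -0.13 (-0.23 to -0.03, limma adjusted p = 0.11), and 7.4% were called. The 3 matching pairs of 4T1 arrays within slides ran in both directions, from -0.19 to 0.13 for miR-140 and from -0.23 to 0.05 for miR-140*.

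Among the lines, 4TO7 had the highest miR-140 also where the receptor was inhibited. On the inhibitor arrays, which the choice of the strands used only as the lower side of the 4TO7 comparison, miR-140 averaged 7.65 ± 0.06 in 4T1, 7.88 ± 0.06 in 4TO7 and 7.64 ± 0.08 in 67NR (SD, n = 4 each). MiR-140* averaged 9.04 ± 0.10 in 4T1, 9.25 ± 0.06 in 4TO7 and 9.14 ± 0.13 in 67NR (SD, n = 4 each). All 4 inhibitor arrays of 4TO7 lay above the inhibitor arrays of both other lines for miR-140, while for miR-140* those of 4TO7 and 67NR overlapped.

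MiR-140 was higher in 4TO7 than in 67NR on inhibitor arrays by 0.24 ± 0.05 (SE; limma adjusted p = 0.00022), in a comparison that called 76.4% of tested probes, with 25.2% of all tested higher. MiR-140* had a value 0.10 ± 0.05 higher and did not pass (limma adjusted p = 0.0565). In 4T1 both strands were lower than in 4TO7, miR-140 by -0.23 ± 0.05 (limma adjusted p = 0.000741) and miR-140* by -0.21 ± 0.05 (limma adjusted p = 0.00195), where 54.8% of probes were called, with 33.4% of all tested lower. Between 4T1 and 67NR the differences were 0.01 (limma adjusted p = 0.814) and -0.10 (limma adjusted p = 0.0531), where 84.7% of probes were called. A call between these lines was thus the usual outcome, and it does not set the strands apart from other probes.

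The line means over all culture conditions include the 4TO7 TGF-beta arrays on which the strands were chosen, so the values with 4TO7 are a description with no test. The difference of 4TO7 from 67NR was 0.45 ± 0.03 (SE) for miR-140 and 0.37 ± 0.03 for miR-140*, in a comparison with 86.8% of probes called and 29.9% of all tested higher. That of 4T1 from 4TO7 was -0.40 ± 0.03 and -0.41 ± 0.03, with 63% called and 40% of all tested lower. Between 4T1 and 67NR neither strand passed, at 0.05 (limma adjusted p = 0.172) and -0.03 (limma adjusted p = 0.378), with 89.6% called. On slides that held both lines in the same condition, 4TO7 exceeded 67NR in 4 of 4 pairs of arrays, by 0.20 to 0.93 for miR-140 and by 0.13 to 0.78 for miR-140*. Both rigid inhibitor pairs on slide 4 share the same 67NR array, and the largest values belong to a pair with TGF-beta. On such slides 4T1 lay below 4TO7 in 2 of 2 pairs, by -0.31 and -0.73 for miR-140 and by -0.12 and -0.89 for miR-140*.

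Ordered by group mean, miR-140 was highest in 4TO7 rigid TGF-beta cultures (8.38), then in 4TO7 compliant TGF-beta (8.18), 4TO7 compliant inhibitor (7.93) and 4TO7 rigid inhibitor cultures (7.84). The arrays of each of the first 3 groups lay wholly above those of the next. From the fourth place down, 4TO7 rigid inhibitor to 67NR rigid TGF-beta (7.53), each group overlapped or touched its neighbour in the order. MiR-140* was highest in 4TO7 rigid TGF-beta (9.90) and 4TO7 compliant TGF-beta cultures (9.64), each clear of the next group. The groups that followed, from 4TO7 compliant inhibitor (9.29) to 67NR rigid TGF-beta (9.09), overlapped neighbour by neighbour. Below them, 67NR rigid inhibitor cultures (9.04) lay clear of both neighbours. The lowest miR-140* was in 4T1 rigid inhibitor cultures (8.96). With 2 arrays per group, gaps between neighbours rest on the range of 2 values each.

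The strands were then compared as a difference of their log2 values on each array, of which only the change between groups is read. Over the 24 arrays this difference had an SD of 0.11, against SDs of 0.25 for miR-140 and 0.26 for miR-140* themselves. With TGF-beta in 4TO7 it changed by -0.13, as miR-140* differed more than miR-140, but the arrays with TGF-beta and with the inhibitor overlapped (SD 0.10 and 0.04, n = 4 each). That value is a description. Of 8 other comparisons none passed a two-sided exact permutation test. With TGF-beta the strand difference changed by -0.07 in 4T1 (exact p = 0.486, adjusted p = 0.971) and by less than 0.01 in size in 67NR (-0.0038, exact p = 0.971, adjusted p = 0.971). For rigidity it changed by 0.06 in 4T1, -0.03 in 4TO7 and -0.0071 in 67NR (exact p = 0.543, 0.657 and 0.886, adjusted p = 0.971 each). With 4 arrays against 4 the smallest p this test can give is 0.0286.

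Between lines, with 8 arrays each and a smallest possible p of 0.000155, the strand difference of 4TO7 exceeded that of 67NR by 0.08 (exact permutation p = 0.104, adjusted p = 0.618). That of 4T1 exceeded 67NR by 0.08 (exact permutation p = 0.154, adjusted p = 0.618) and 4TO7 by 0.0024 (exact permutation p = 0.967, adjusted p = 0.971). The comparisons of 4TO7 with another line contain the TGF-beta arrays on which the strands were chosen, so nothing is read from their p-values. The failure to pass does not show that the ratio of the strands was fixed, since changes of this size are within the spread between arrays.

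**Figure D3:**
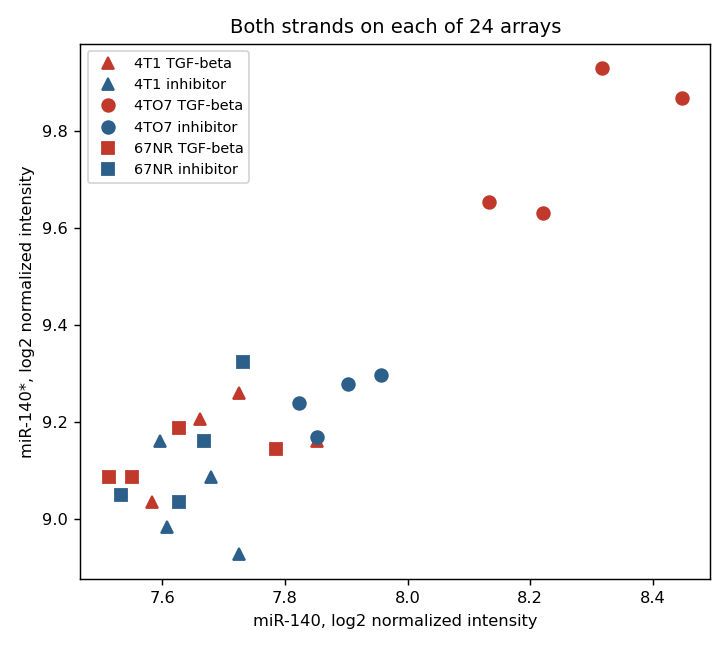
Log2 normalized intensity of miR-140* against that of miR-140 on each of 24 arrays, with triangles for 4T1, circles for 4TO7 and squares for 67NR, in red for TGF-beta and blue for the inhibitor. The 4 arrays of 4TO7 with TGF-beta stand apart at the upper right, from 8.13 and 9.63 upwards, and the other 20 arrays form 1 cloud.

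Across the 12 group means the strands had a Pearson correlation of 0.954 and a Spearman correlation of 0.874. Without the 4TO7 TGF-beta groups these were 0.723 and 0.782 over 10 means, so part of the coefficient rests on those groups. Over the 4 group means of a single line, r was 0.491 in 4T1, 0.999 in 4TO7 and 0.831 in 67NR. The strands share arrays, labelling and normalization, and the coefficients are descriptions without a p.

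Other hairpins give a measure of how usual such agreement is. For 38 miRNAs both the strand without a star and the star strand were tested, and the median r over the 12 group means was 0.662. The miR-140 pair stood at place 6 of 38 over 12 means and at place 17 over the 10 means without 4TO7 TGF-beta, where the median was 0.691. The closest pairs were those of miR-22 (0.985), miR-20a (0.973) and miR-138 (0.971), and the most opposed were miR-15a (-0.879), miR-30b (-0.840) and miR-92a (-0.816). In 21 pairs, miR-140 among them, both strands were detected on 24 arrays, with a median r of 0.655.

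In the TGF-beta comparison of 4TO7 the miR-140 pair had large values for both strands. By the smaller of the strands' differences, where both had the same sign, it stood first of 38, at 0.40 for miR-140 and 0.52 for miR-140*. MiR-22, a miRNA with growth-restraining roles, came next with 0.62 for its main strand and 0.26 for miR-22*, which was detected on 14 of 24 arrays. MiR-21, an oncogenic miRNA whose maturation Smads promote, followed with 0.60 for its main strand and 0.20 for miR-21*. In both of these the star strand had the smaller difference, and in the miR-140 pair the larger. Of the 38 pairs, 23 had strands with the same sign. The miR-140 pair was chosen on this comparison, so its place is no support.

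**Figure D4:**
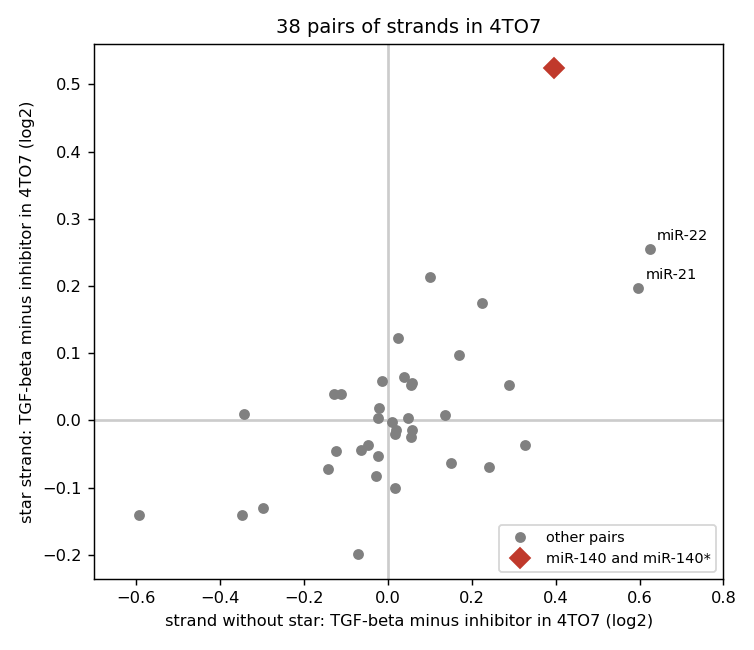
TGF-beta minus inhibitor in 4TO7 (log2) of the star strand against that of the strand without a star, for 38 pairs of strands from the same hairpin, with the miR-140 pair as a red diamond and the other pairs in grey. The miR-140 pair lies at 0.40 and 0.52, while miR-22 and miR-21 lie further right and lower, at 0.62 and 0.26 and at 0.60 and 0.20.

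Among 354 other tested probes that carry 1 miRNA name and whose group means varied, the pattern of miR-140 over the 12 group means was most like that of miR-140*, followed by miR-148a (Pearson r = 0.860), miR-804 (0.844), miR-99b (0.814) and miR-489 (0.737). For miR-140* the order after miR-140 was miR-804 (0.865), miR-148a (0.745), miR-99b (0.717) and miR-489 (0.681). MiR-148a was detected on 8 arrays and miR-489 on 7, all of 4TO7, so their patterns are mainly a contrast between that line and background. Within 67NR, miR-99b ran against miR-140 (r = -0.984 over 4 means) and within 4TO7 with it (0.786). The least like miR-140 were miR-99b* (-0.678), miR-425* (-0.652) and miR-712* (-0.649), and the least like miR-140* were miR-99b* (-0.643), miR-30a* (-0.604) and miR-186 (-0.587).

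Other miRNAs of the same settings did not move as 1 group. Of 10 miRNAs linked to cartilage, 6 were tested, and with TGF-beta in 4TO7 2 rose and 1 fell, with a median difference of -0.01 against 0.00 over all tested probes, of which 9.59% were called higher and 11.8% lower. In that line miR-22 rose by 0.62 (limma adjusted p = 4.02e-07) and miR-210, the hypoxia-induced miRNA, fell by 0.43 (limma adjusted p = 0.00169). The third was miR-146a, whose 4TO7 signal passed detection with TGF-beta on 2 of 4 arrays and with the inhibitor on 0 of 4, so it has no measured lower side. In 4T1 2 rose and 1 fell, where 12.6% of all tested probes were called higher and 19.2% lower, and in 67NR 1 rose and 1 fell, where 3.29% were called higher and 7.67% lower. MiR-22 rose by 1.26 in 4T1 (limma adjusted p = 3.57e-11) and by 0.34 in 67NR (limma adjusted p = 0.000417), lines in which neither strand of miR-140 passed.

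Of 14 miRNAs reported elsewhere to repress TGF-beta receptors or Smads, 13 were tested. With TGF-beta in 4TO7 5 of them rose and 1 fell, with a median difference of 0.08 against 0.00 over all tested probes, of which 9.59% were called higher and 11.8% lower (21.4% in either direction). That split of 35 higher and 43 lower calls became 45 and 35 with the authors' values and, with median scaling, 27 and 53, while with either of these, or with the median of probes detected on all arrays, the list had 5 rises and 1 fall. Without normalization all tested probes split into 35 higher and 6 lower calls and the list into 6 rises and 0 falls, with miR-15b at -0.18 (limma adjusted p = 0.258). MiR-21 rose by 0.60 (limma adjusted p = 5.31e-05), miR-16 by 0.41 (limma adjusted p = 0.0019) and miR-17 by 0.29 (limma adjusted p = 0.00108), and miR-15b fell by 0.32 (limma adjusted p = 0.00238). MiR-155 passed detection in 4TO7 on 4 of 4 arrays with TGF-beta and 0 of 4 with the inhibitor, and miR-146a is counted here too. In 4T1 3 rose and 3 fell, with a median of -0.01, beside 12.6% of all tested probes called higher and 19.2% lower. In 67NR 0 rose and 1 fell, miR-16 by 0.28 (limma adjusted p = 0.0489), with a median of 0.05, beside 3.29% and 7.67%.

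A further list held 20 miRNAs that, like miR-140, lie within protein-coding genes, of which 11 were tested. With TGF-beta in 4TO7 1 rose and 4 fell, with a median difference of -0.04, beside 9.59% of all tested probes called higher and 11.8% lower. Among those that fell, miR-26a differed by -0.59 (limma adjusted p = 1.55e-06) and miR-26b by -0.23 (limma adjusted p = 0.00309), both from introns of Ctdsp phosphatase genes. In 4T1 0 rose and 5 fell, beside 12.6% of all tested called higher and 19.2% lower, and in 67NR 1 rose and 3 fell, beside 3.29% and 7.67%. Without normalization between arrays the counts were 1 rise and 1 fall in 4TO7, 0 and 0 in 4T1 and 0 and 3 in 67NR. All 365 tested probes then split into 35 higher and 6 lower in 4TO7, 21 and 8 in 4T1, and 2 and 37 in 67NR. The arrays measured no messenger RNA, so Wwp2 itself was not measured, and a change of transcription cannot be told apart from one of processing or stability.

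Markers of cell types were read beside these results, since a bulk array cannot tell fewer cells of a type from less RNA per cell. Of 7 mammary epithelial miRNAs, miR-200b, miR-200c and miR-429 were detected on none of the 8 arrays of 4TO7 or of 67NR. In 4T1, 6 of 7 were detected. MiR-141 and miR-203 were detected on 24 arrays. In 4TO7 miR-200a was detected on 3 of 4 arrays with either treatment. Of the 7, 5 were higher and 1 was lower in 4T1 than in 67NR. Of all 365 tested probes 89.6% were called, 112 as higher and 215 as lower. Among the higher ones, miR-200b, miR-200c and miR-429 were tested only because they were detected in 4T1, so nothing is read from their calls. The lower one was miR-203, at -0.52 (limma adjusted p = 1.12e-11). The summed normalized intensity of the 7 was 1749 to 2004 in 4T1, 615 to 796 in 4TO7 and 632 to 687 in 67NR. The summed intensity of 4 mesenchymal probes was 6943 to 8764 in 4T1, 8803 to 9540 in 4TO7 and 11845 to 14199 in 67NR. With TGF-beta in 4TO7 it was 8840 to 9540, against 8803 to 9509 with the inhibitor. In that comparison 0 of the 4 probes passed, beside 21.4% of all tested probes, and miR-143 among the 4 was not detected in 4TO7. Of the 7 epithelial probes 1 was called in the same comparison, miR-205, which was lower. Its only detection on the 24 arrays was in 4TO7, with the inhibitor on 2 of 4 arrays and with TGF-beta on 0 of 4. It was thus tested only through the group in which it was high, and nothing is read from its call. The part of miR-205 in the differences of the strands was not tested. Of 6 blood miRNAs, miR-451 alone was detected, and 0 of 2 endothelial ones. Across all arrays 313 to 357 miRNA probes were detected, the medians of log2 intensity per array before normalization lay at 7.29 to 7.87, and arrays of a group correlated at 0.995 to 0.999.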

How the data were processed

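Total RNA of 12 culture groups was hybridised to 24 miRNA arrays, 2 per group, of 593 probes, of which 35 are spike-in controls and 558 mouse miRNAs. The deposited intensity of a probe is relative, DY649 sample signal over DY547 signal, background-subtracted and corrected for labelling by the authors, per the deposited column notes, and not scaled between arrays. The deposited files also give an error, a detection p-value and a fail code, which marks DY547 signal below background. In the authors' deposited value table, log2 intensity is given for 338 probes and equals log2 of the deposited intensity plus 1 constant per array (-0.287 to 0.236). The choice of constants and the scanner software are not stated in the sources used here.

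Quantile normalization of log2 intensity over the 558 miRNA probes used limma 3.58.1 (R 4.3.3). Probes detected (p under 0.05) on both arrays of at least 1 group, with a fail code on fewer than 12 arrays, were tested, which left 365, 7 of them with several names. One linear model of 12 group means (12 residual degrees of freedom) with eBayes and a mean-variance trend gave two-sided p-values, adjusted by Benjamini and Hochberg over the 365 probes of each comparison, with 0.05 as the threshold. The number of arrays limits the precision. The script was checked on simulated data. The strand difference was tested by exact permutation over arrays, adjusted over 8 comparisons. Alternatives were other scalings, filters, spread models, slide blocks and leaving out each array. Pairs of lines on inhibitor arrays, rigidity within lines and the strand correlation over 10 means were added after the values were seen.

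The members and the lists were chosen with earlier results of these data known. For the level of each member, the 4TO7 difference between TGF-beta and inhibitor is given without a p-value. So are its excess over other lines and the differences of 4TO7 from other lines over all conditions. The rigid excess, within 4TO7 and over the lines, uses the same 4TO7 arrays and keeps its p-values, from which nothing is read. The same holds for the strand difference between 4TO7 and another line. Named miRNAs were the members, the 5 most and 3 least correlated probes, the 3 most, 3 least and 3 most responsive pairs of strands, and up to 4 called members per list. Sequences are from RefSeq, GRCm38.p6.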

Additional observations from a re-analysis of the deposited data

How the results depend on the processing

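The TGF-beta differences in 4TO7 kept their direction under every alternative run. They were 0.59 for miR-140 and 0.69 for miR-140* without normalization between arrays, and the excess over 67NR was then 0.77 and 0.87. The remaining values near the threshold or near 0 depended on the setting, and the cause was not tested. For TGF-beta in 67NR, scaling by the median of probes detected on all arrays gave 0.021 for miR-140 and 0.025 for miR-140*, and the authors' table gave 0.024 and 0.028. For TGF-beta in 4T1, miR-140* passed with that scaling (0.18, limma adjusted p = 0.00667), in the authors' table (0.17, limma adjusted p = 0.00848), with only probes detected on 24 arrays (0.13, limma adjusted p = 0.0452), without the variance trend (0.13, limma adjusted p = 0.033) and with slide as a random block (0.13, limma adjusted p = 0.0494). For rigidity in 67NR, miR-140 passed with median scaling (-0.16, limma adjusted p = 0.0443), in the authors' table (-0.18, limma adjusted p = 0.0207) and with array weights (-0.15, limma adjusted p = 0.0401), and miR-140* with array weights (-0.14, limma adjusted p = 0.0401) and without the trend (-0.14, limma adjusted p = 0.0466). For rigidity in 4T1, miR-140* passed with the detected-probe scaling (-0.16, limma adjusted p = 0.0406) and in the authors' table (-0.18, limma adjusted p = 0.026). For 4T1 against 67NR, miR-140 passed with the detected-probe scaling (0.096, limma adjusted p = 0.0197) and in the authors' table (0.15, limma adjusted p = 0.000274), and miR-140* passed with median scaling (-0.15, limma adjusted p = 0.00123) and turned to 0.0057 in the authors' table. For 4TO7 against 67NR, miR-140* was at 0.10 on inhibitor arrays only (limma adjusted p = 0.0565). The rigid excess of the TGF-beta effect for miR-140 turned to -0.0075 without normalization, -0.0056 in the authors' table, -0.056 within 67NR and -0.20 within 4T1. The strand difference of 4T1 against 67NR passed without normalization (0.15, exact permutation adjusted p = 0.0348).

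Whether the set numbers pair the samples was not settled. Deviations of same-numbered arrays correlated at -0.334 to 0.486, with a median of 0.088 and the highest value within a line. Of 66 pairs of groups, 32 exceeded 0.1. With the replicate block, miR-140* passed for TGF-beta in 4T1 (0.13, limma adjusted p = 0.0445), and no other call of the strands changed. Counts of calls over all probes moved by over 1.5 times in these cases. Without normalization there were 41 for TGF-beta in 4TO7 (78 as reported), 29 in 4T1 (116), 15, 2 and 7 for rigidity in 67NR (40), 4TO7 (10) and 4T1 (27), and 141 for 4T1 against 4TO7 (230). The authors' table, array weights and the block gave 61, 63 and 70 for TGF-beta in 67NR (40). For rigidity in 4TO7 (10), the detected-probe scaling gave 21, the block 18 and the 284 probes detected on 24 arrays 6. Slide as a fixed block gave 50 for TGF-beta and 12 for rigidity in 4T1, and 14 for the TGF-beta effect of 4T1 minus 67NR (25), for which the 284 probes gave 12. Without normalization, calls of 4T1 against 4TO7 split into 124 higher and 17 lower (84 and 146).

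Leaving out each array in turn gave -0.060 to 0.019 for miR-140 and -0.057 to 0.024 for miR-140* for TGF-beta in 67NR, and 0.083 to 0.17 for miR-140* in 4T1. For rigidity it gave -0.19 to -0.11 for miR-140 and -0.18 to -0.099 for miR-140* in 67NR, and -0.17 to -0.086 for miR-140* in 4T1. Single arrays decided a call here: without 67NR compliant TGF-beta set 1 miR-140 passed (limma adjusted p = 0.032), without 67NR compliant inhibitor set 2 miR-140* passed (limma adjusted p = 0.0284), and without 4T1 rigid TGF-beta set 1 miR-140* passed (limma adjusted p = 0.0441). The rigid excess of the TGF-beta effect for miR-140 ran from -0.011 to 0.042. The strand difference ran from -0.053 to 0.028 for TGF-beta in 67NR, from -0.040 to 0.040, -0.073 to 0.026 and -0.0051 to 0.11 for rigidity in 67NR, 4TO7 and 4T1, and from -0.029 to 0.022 for 4T1 against 4TO7.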
